A study of Mus musculus with 9 samples.

Results

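The 9 genes described here are used as markers of mast cells and basophils: Fcer1a, Ms4a2 and Fcer1g, Hdc, Cpa3, Mcpt8, Prss34, Gzmb and Il1rl1. They were taken by symbol from the deposited table of gene counts, which holds 17769 genes, and all 9 were found there. The cells were not sorted as mast cells or basophils. They came from mouse bone marrow on a C57BL/6N background and had been gated as MEP (megakaryocyte-erythroid progenitors) on a cell sorter. Jak2 mutations had been induced with 5 daily intraperitoneal injections of tamoxifen. The labels give 5 tamoxifen injections for the WT group as well. The VF group carried SclCre and the V617F allele and was taken 12 weeks later, the E12 group carried SclCre and the exon 12 allele and was taken 6 weeks later, and the WT group was taken at 12 weeks. SclCre expresses Cre recombinase from control sequences of Scl, a gene of blood stem and progenitor cells. The labels call the control WT and do not say whether it carried SclCre. Each group has 3 libraries, named by the numbers in the labels: VF 1, 2 and 3, E12 1, 2 and 5, and WT 50, 51 and 52. The labels do not say that they came from separate mice. The p-values set the group differences against the spread among these libraries. Part of that spread may be technical, so the p-values may not extend to other mice.

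Mast cells and basophils are granulocytes that hold preformed mediators in granules and release them when antigen crosslinks IgE on their surface. The high-affinity IgE receptor has an alpha chain that binds IgE (Fcer1a), a beta chain that amplifies the signal (Ms4a2) and a gamma chain that carries the activation motif (Fcer1g). The gamma chain also serves other Fc receptors in many myeloid and NK cells, so Fcer1g is the least restricted of the 3. Hdc makes histamine from histidine, Cpa3 is a carboxypeptidase of mast cell granules that immature basophils also express, Mcpt8 and Prss34 encode basophil proteases in the mouse, and Gzmb encodes granzyme B. Il1rl1 encodes ST2, the receptor for interleukin 33. Basophil and mast cell progenitors share early steps with megakaryocyte and erythroid progenitors, and GATA factors act in all of these lineages.

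Total counts per library were 19256431 to 21331168 in VF, 20328414 to 23499914 in E12 and 33838681 to 39736096 in WT. The WT libraries carry library numbers from another run of numbers than VF and E12, so in both comparisons with WT the genotype and the series of libraries cannot be told apart. Genes without a count made up 27.2 to 30.1% of the table in WT, 10.7 to 12.4% in VF and 12.4 to 18.7% in E12. Genes longer than 5 kb held 4.37 to 7.92% of the WT counts and 14.2 to 16.3% of those of the other 6 libraries. The TMM factors, which rescale library size, were 1.26 to 1.28 in VF and 1.09 to 1.19 in E12. In WT they were 0.456, 0.841 and 0.869 in WT 50, 51 and 52, so scaling raises the values of WT 50 most. WT 50 and E12 5 stood apart from their groups. WT 50 had the highest sum of neutrophil, B cell, and T and NK cell markers in its group, and E12 5 had 3.37% of its counts in hemoglobin genes against 0.104% and 0.0786% in E12 1 and E12 2. Of the markers of the sorted population, Klf1 and Epor, an erythroid factor and the erythropoietin receptor, had counts in all 9 libraries, with Klf1 at 70.9 to 163 CPM (counts scaled to library size) in VF against 1690 to 3410 in WT. Cd34, which the MEP gate usually keeps low, was at 633 to 675 CPM in VF, 119 to 288 in E12 and 2.77 to 4.97 in WT.

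The sequences just before the start sites of 4 of the 9 genes are shown because they hold the GATA-like letters that several of these genes share. They are the 250 bases upstream of the start, 5′ to 3′ on the strand of the gene, from RefSeq on GRCm38. Capitals mark every match, on either strand, to GATA with an A or T before it and an A or G after it. The windows lie at chr1:173227230-173227479 (minus strand) for Fcer1a, chr19:11623720-11623969 (minus) for Ms4a2, chr3:20242182-20242431 (minus) for Cpa3 and chr1:40429320-40429569 (plus) for Il1rl1.
Fcer1a: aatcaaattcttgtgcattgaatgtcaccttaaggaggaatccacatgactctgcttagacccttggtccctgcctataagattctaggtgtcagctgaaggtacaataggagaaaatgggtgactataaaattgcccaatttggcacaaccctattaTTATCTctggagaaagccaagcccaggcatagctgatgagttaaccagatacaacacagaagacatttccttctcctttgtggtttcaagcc
Ms4a2: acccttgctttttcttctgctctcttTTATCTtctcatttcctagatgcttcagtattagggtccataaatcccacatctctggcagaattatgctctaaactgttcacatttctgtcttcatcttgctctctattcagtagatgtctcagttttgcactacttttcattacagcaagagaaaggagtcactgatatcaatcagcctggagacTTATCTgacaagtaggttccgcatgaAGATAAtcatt
Cpa3: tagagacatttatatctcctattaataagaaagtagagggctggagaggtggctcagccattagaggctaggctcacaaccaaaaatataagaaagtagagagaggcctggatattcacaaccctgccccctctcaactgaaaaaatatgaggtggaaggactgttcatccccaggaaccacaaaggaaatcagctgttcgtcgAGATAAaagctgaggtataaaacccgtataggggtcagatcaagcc
Il1rl1: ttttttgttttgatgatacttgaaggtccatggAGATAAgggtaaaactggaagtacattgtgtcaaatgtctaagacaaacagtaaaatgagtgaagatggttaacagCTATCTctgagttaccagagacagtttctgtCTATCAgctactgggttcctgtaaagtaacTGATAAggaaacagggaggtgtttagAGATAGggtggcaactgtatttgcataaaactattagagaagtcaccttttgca
The match of Fcer1a starts 92 bases before the start site and that of Cpa3 46 bases before it. Ms4a2 has 3 matches, at 224, 37 and 11 bases before the start, and Il1rl1 has 5 in the window shown and 1 in the window of a second start site. Hdc and Prss34 also have 1 match each, and Fcer1g, Mcpt8 and Gzmb have 0, so 6 of 9 genes have at least 1. Of the 32851 such windows of all genes in the table, 26.5% hold a match, 1.35% hold 3 or more and 0.0426% hold 5 or more. The STAT letters TTCNNNGAA occur in 0 of the 9 genes and in 7.02% of all windows. These are matches of letters, and binding was not measured.

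The genes lie on 6 chromosomes (GRCm38, RefSeq annotation, 1-based). Fcer1a (Entrez 14125) is at chr1:173221269-173227232 and Fcer1g (14127) at chr1:171229572-171234349, both on the minus strand and 1987 kb apart. Il1rl1 (17082) is at chr1:40404864-40465418 on the plus strand. Ms4a2 (14126) is at chr19:11615517-11623790, Cpa3 (12873) at chr3:20215616-20242209 and Hdc (15186) at chr2:126593659-126624025, all on the minus strand. Mcpt8 (17231) is at chr14:56082163-56085499 and Gzmb (14939) at chr14:56258836-56262334, both minus, and Prss34 (328780) is at chr17:25298394-25300168 on the plus strand.

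Fcer1a was the gene of the IgE receptor whose 3 groups did not overlap. In VF its level was 51.3, 44.9 and 47.8 CPM in VF 1, 2 and 3, in E12 it was 7.61, 13.6 and 3.34 CPM in E12 1, 2 and 5, and in WT it was 0.0552, 0 and 0 CPM in WT 50, 51 and 52. Every VF library was above every E12 library, and 2 of the 3 WT libraries had no count for the alpha chain. The summed counts were 3751 in VF, 630 in E12 and 1 in WT. Relative to TMM-scaled library size VF was 3820 times WT (95% counting interval 686 to 151000) and E12 was 670 times WT (120 to 26500). In bulk samples, fewer cells of a type and less RNA per cell cannot be told apart. The intervals treat each read as an independent count and leave out the spread between libraries. The libraries have no molecular identifiers, so 1 molecule may be counted more than once, and the intervals may be too narrow. In the quasi-likelihood test of edgeR, with p-values adjusted by Benjamini-Hochberg over 13608 genes as for every single gene below, Fcer1a was higher in VF than in WT (adjusted p = 0.00015) and in E12 than in WT (adjusted p = 0.00065). The fitted log2 changes, 11.39 ± 0.94 (SE) and 8.85 ± 0.91, rest on the single WT count and are no bounds. E12 was lower than VF, with a log2 difference of -2.55 ± 0.56, from 48 ± 3.21 CPM (SD, n = 3) in VF to 8.2 ± 5.17 in E12, a 5.85-fold difference at an adjusted p = 0.046. That last call was lost in 8 of 20 alternatives, among them each fit without a VF or E12 library, where the adjusted p reached 0.21. The log2 difference stayed between -3.13 and -2.12 in the 20.

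Ms4a2, the beta chain, was likewise nearly absent from WT. Its levels were 37.4, 35.2 and 39.3 CPM in VF, 11.8, 37.4 and 4.99 CPM in E12 and 0, 1.87 and 0.034 CPM in WT. The 3 VF libraries lay close together, E12 2 lay among them, and E12 1 and E12 5 lay below. Ms4a2 was 5.8 ± 1.42 log2 units (SE) higher in VF than in WT (edgeR adjusted p = 0.0091) and 4.75 ± 1.35 higher in E12 than in WT (adjusted p = 0.021). The E12 call was lost without E12 2 (adjusted p = 0.078) and when only the E12 and WT libraries were fitted (0.075). Between E12 and VF the groups overlapped, with a difference of -1.04 ± 1.15 (adjusted p = 0.70).

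Fcer1g, the shared gamma chain, showed no such pattern. It was at 76.9, 61.3 and 65.4 CPM in VF, at 28.8, 23.7 and 88.1 CPM in E12 and at 170, 27.5 and 17 CPM in WT. All 3 groups overlapped, and WT 50 held the highest CPM of all 9 libraries. That rank rests on the low TMM factor of WT 50 (0.456). By total counts WT 50 had 3080 of 39736096, a smaller share than the 2029 of 20328414 in E12 5. The log2 differences were -0.07 ± 0.81 (SE) for VF against WT (edgeR adjusted p = 0.95), -0.61 ± 0.81 for E12 against WT (0.58) and -0.53 ± 0.81 for E12 against VF (0.80). This gene depends on single libraries and on gene length, and its transcript is short (658 bases in the authors' table). Without WT 50 the difference of VF from WT was 1.46 (adjusted p = 0.05), and with an offset for gene length it was 1.98 (adjusted p = 0.0093). In E12 5, which had the highest Fcer1g of its group, the partner receptor gene Fcgr4 was at 51.1 CPM against 0.156 and 1.6 CPM in E12 1 and E12 2.

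The balance of the 3 chains was taken within each library as a ratio of CPM per kb of gene length. Alpha over beta was 3.8, 3.5 and 3.3 in VF 1, 2 and 3 and 1.8, 1 and 1.8 in E12 1, 2 and 5. Every E12 library thus had less alpha chain per beta chain RNA than every VF library. How often ratios of other genes separate these groups was not computed. Of all single genes 31.3% lay lower in E12 than in VF without overlap, and Fcer1a was among them. With 3 against 3 libraries an exact permutation test cannot go below 0.1, and none was run on this ratio. In WT 51 and WT 52 the ratio was 0, and in WT 50 there was no beta count. Gamma over beta was 8.8, 7.5 and 7.1 in VF but 10, 2.7 and 75 in E12, so the gamma chain did not keep step with the beta chain in E12 5.

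**Figure D1:**
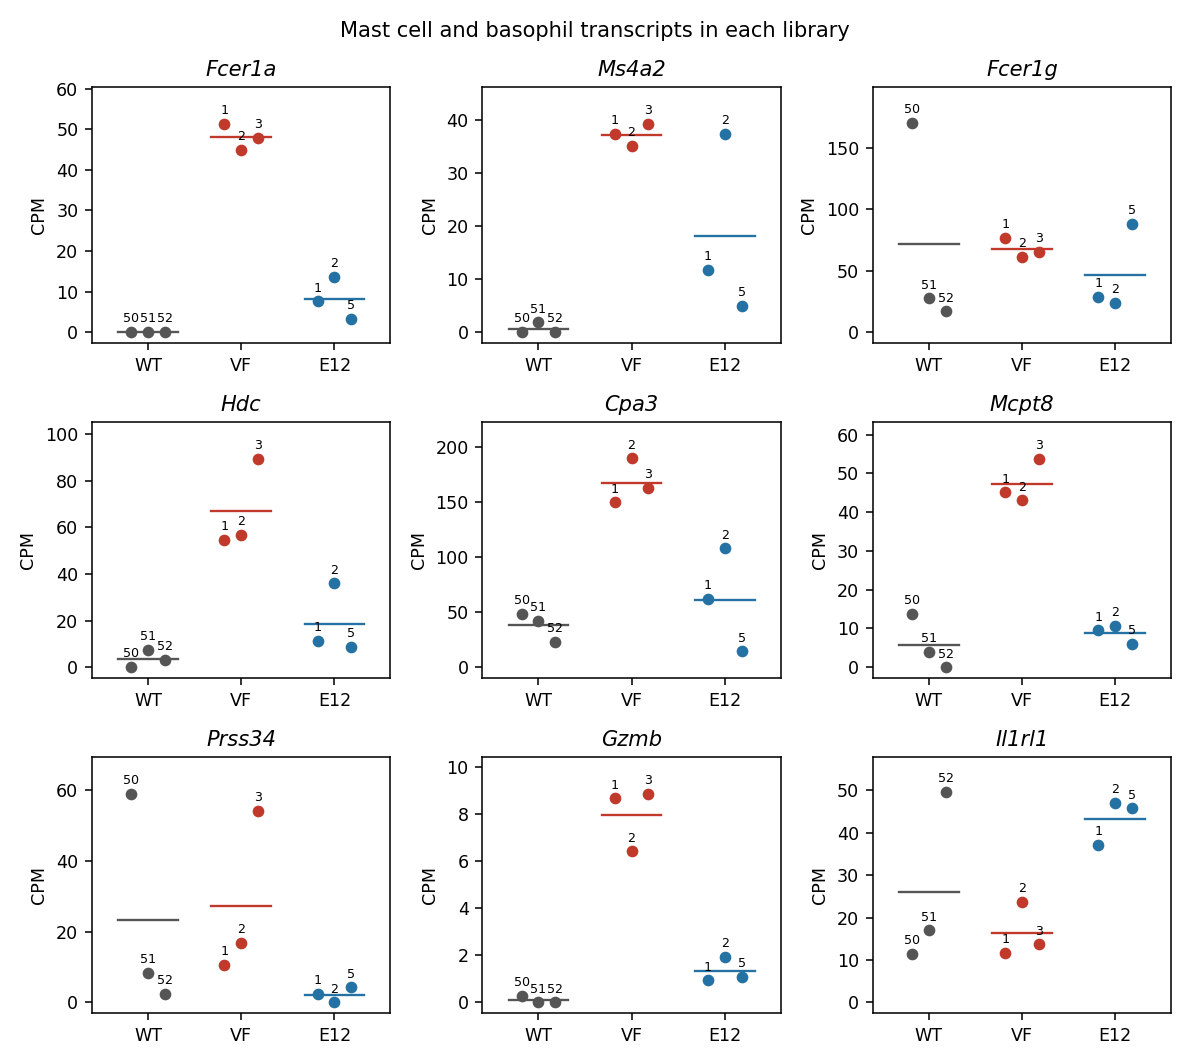
Level of each of the 9 genes in CPM (y axis, linear, 1 scale per gene) by group (x axis); points are libraries with their numbers and bars are group means, n = 3. Fcer1a, Gzmb and Hdc are highest in the 3 VF libraries and lie at or near 0 in WT, Il1rl1 is higher in the E12 libraries than in VF, and Fcer1g and Prss34 are led by WT 50.

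Hdc, the histamine-forming enzyme, was highest in VF, intermediate in E12 and lowest in WT. Its levels were 54.7, 56.8 and 89.3 CPM in VF, 11.2, 36 and 8.81 CPM in E12 and 0.0552, 7.32 and 3.23 CPM in WT. Neighbouring groups in that order did not overlap. VF was 4.22 ± 1.11 log2 units (SE) above WT (edgeR adjusted p = 0.013), while E12 against WT (2.38 ± 1.03, adjusted p = 0.091) and E12 against VF (-1.84 ± 1.0, adjusted p = 0.39) did not pass.

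Cpa3 was the most abundant of the 9 per kb in VF. It was at 150, 190 and 163 CPM in VF, at 62.1, 108 and 14.6 CPM in E12 and at 48.8, 42.4 and 23.3 CPM in WT, and so had counts in every WT library, unlike the receptor's alpha chain. VF lay above both other groups, and E12 ranged from below all WT libraries (E12 5) to above them (E12 1 and E12 2). VF was 2.13 ± 0.61 log2 units (SE) above WT (edgeR adjusted p = 0.018), a call lost without WT 51 or without WT 52, where the adjusted p was up to 0.075. E12 differed from WT by 0.69 ± 0.59 (adjusted p = 0.37) and from VF by -1.44 ± 0.59 (adjusted p = 0.24).

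Mcpt8 and Prss34 encode basophil proteases, and they did not follow each other. Mcpt8 was at 45.1, 43 and 53.7 CPM in VF, at 9.49, 10.7 and 6.08 CPM in E12 and at 13.7, 3.92 and 0 CPM in WT. The VF libraries were all above the other 6, and E12 lay within the range of WT. The log2 difference of VF from WT was 3.02 ± 1.25 (SE), with an edgeR adjusted p = 0.072, and it passed without WT 50 (4.37, adjusted p = 0.013) and with the length offset (4.92, adjusted p = 0.0079). Prss34 was at 10.7, 16.8 and 54.1 CPM in VF, at 2.38, 0 and 4.21 CPM in E12 and at 58.9, 8.41 and 2.38 CPM in WT. VF 3 and WT 50 were high for Prss34, and every E12 library was below every VF library. Its difference between VF and WT was 0.23 ± 1.36 (adjusted p = 0.90) and changed sign between alternatives, and neither -3.63 ± 1.53 for E12 against VF (adjusted p = 0.25) nor -3.4 ± 1.51 for E12 against WT (0.098) passed. The same 2 libraries, VF 3 and WT 50, had the highest level of Prg2, the eosinophil major basic protein gene, in their groups (40.8 and 70.4 CPM). Epx and Prg3, which also encode eosinophil granule proteins, were highest in VF 3 within VF too (5.23 and 4.34 CPM), but they had no count in WT 50 and were highest within WT in WT 51 (2.52 and 2.3 CPM). The part of eosinophil RNA in this was not tested.

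Gzmb, granzyme B, had the lowest CPM of the 9 in VF, with no scaling to gene length, and was lower still in E12 and WT. It was at 8.66, 6.41 and 8.84 CPM in VF, at 0.937, 1.94 and 1.09 CPM in E12 and at 0.276, 0 and 0 CPM in WT. No 2 groups overlapped. The summed counts were 621 in VF and 5 in WT, a ratio of 127 relative to TMM-scaled library size (95% counting interval 53.9 to 391). Gzmb was higher in VF (6.59 ± 1.34 SE on the log2 scale, edgeR adjusted p = 0.0043) and in E12 (4.01 ± 1.24, adjusted p = 0.028) than in WT. The second call was lost in 9 of 18 alternatives (adjusted p up to 0.12). E12 against VF gave -2.59 ± 1.07 (adjusted p = 0.24). Granzyme B is also a gene of cytotoxic T and NK cells. The NK cell gene Nkg7 was at 493, 479 and 545 CPM in VF and at 97.3 to 240 CPM in E12. In WT 50, 51 and 52 it was at 1090, 252 and 121 CPM. Prf1, the perforin gene of the same cells, was at 0.745 to 0.938 CPM in VF, 0, 0 and 1.82 CPM in E12 and 1.09 to 5.63 CPM in WT. Gzma, another granzyme gene of the same list of T and NK cell genes, was lower in every VF library than in every WT library. Of the 12 genes of that list tested, 2 were called higher in VF than in WT and 1 lower, with a median log2 change of -0.14. Cd4 and Eomes, also of that list, had counts in VF and none in WT, unlike Prf1. Neither could have passed the filter on low counts through WT, so both had to be lower there. Cd4, a T cell coreceptor, had 99 counts in VF against 0 in WT, at least 33.6-fold higher by TMM-scaled library size. Eomes, a factor of NK and memory T cells, had 56 against 0 counts, a level in VF at least 19-fold higher. Folds given as at least are computed against 3 counts over the 3 WT libraries, with TMM-scaled library sizes. The part of T and NK cell RNA in the Gzmb values was not tested. Mcpt8 and Gzmb lie 173 kb apart on chromosome 14, in a cluster of related protease genes, and reads shared between near copies could have been assigned to either, which makes their values less certain.

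Il1rl1, the receptor for interleukin 33, was the gene that ran the other way. It was at 37.1, 47 and 45.8 CPM in E12, at 11.7, 23.7 and 13.7 CPM in VF and at 11.4, 17 and 49.7 CPM in WT. All 3 E12 libraries were above all 3 VF libraries, and WT 52 lay above both. E12 was 1.4 ± 0.53 log2 units (SE) above VF, which did not pass (edgeR adjusted p = 0.20). It passed in 7 of 20 alternatives, among them the fit without WT 50 (adjusted p = 0.03) and the fit without WT 52. The gene is long, 7096 bases in the authors' table. Against WT the differences were -0.67 ± 0.52 for VF (adjusted p = 0.32) and 0.73 ± 0.52 for E12 (0.28). With the offset for gene length they became -1.95 (adjusted p = 0.0057) and -0.38 (0.52).

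The order of the genes within a group can be read from the mean CPM per kb. In VF it ran from Cpa3 (115) and Fcer1g (103) through Mcpt8 (56.4), Fcer1a (46.8), Hdc (27.9), Prss34 (22.4) and Ms4a2 (13.2) to Gzmb (5.63) and Il1rl1 (2.31). In E12, Fcer1g (71.2) and Cpa3 (42.4) again led, Mcpt8 (10.4), Fcer1a (7.99), Hdc (7.78), Ms4a2 (6.41) and Il1rl1 (6.1) followed within the spread of the libraries, and Prss34 (1.81) and Gzmb (0.933) were lowest. In WT, Fcer1g (109) was followed by Cpa3 (26.3), Prss34 (19.1), Mcpt8 (7.01), Il1rl1 (3.67) and Hdc (1.47), and Ms4a2 (0.225), Gzmb (0.065) and Fcer1a (0.0179) were at the bottom. The alpha chain thus had rank 4 of the 9 in VF and E12 and was last in WT.

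The spread between libraries also differed by group. In VF the coefficient of variation was 5.47% for Ms4a2, 6.68% for Fcer1a and 12.3% for Cpa3, and it was highest for Prss34 (86.2%). In E12 it was 94.7% for Ms4a2, 63.1% for Fcer1a and 75.8% for Cpa3, and lowest for Il1rl1 (12.4%). E12 2 was the highest E12 library for 7 of the 9 genes and E12 5 the lowest for 5. The summed level of the 9 genes was 446 to 535 CPM in VF, 171 to 278 in E12 and 95.6 to 303 in WT, where the top value was that of WT 50 and came mostly from Fcer1g and Prss34.

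The comparison of VF with WT asks how the 9 genes stand with the V617F allele after 12 weeks. Fcer1a, Ms4a2, Hdc, Cpa3 and Gzmb rose, 5 of 9, and 0 of 9 fell. Of all 13608 genes tested, 48.6% were called, 27.7% higher and 20.9% lower. The 3 VF libraries lay above the 3 WT libraries for 6 of the 9 genes and below for 0, against 39.7% and 23% of all genes. The median log2 change was 3.02 over the 9 genes and 0.36 over all genes. All 9 passed the filter on low counts, but Fcer1a and Gzmb passed only through VF and E12, with 0 WT libraries over the 0.454 CPM that the filter asks for, so these had to be lower in WT. Ms4a2, Hdc and Mcpt8 had 1, 2 and 2 WT libraries over it, short of the 3 needed. They too could not have passed on WT alone, so their selection favours genes lower in WT. With an offset for gene length, 7 rose and 1 fell, and 18.3% of all genes were called higher; in that fit the median of all genes moved to -0.2, and 39.1% of all calls were higher in place of 57%.

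In E12 against WT, which also differ in time (6 against 12 weeks), Fcer1a, Ms4a2 and Gzmb rose, 3 of 9, and 0 fell. None of these 3 could have passed the filter on low counts through the WT libraries alone. Of all genes 42% were called, 23.9% higher and 18.1% lower, so the share of the 9 is not far from that of all genes. The groups did not overlap for 4 genes, all with E12 above (Fcer1a, Ms4a2, Hdc and Gzmb), against 33% of all genes above and 20.3% below. The median log2 change was 0.73 over the 9 genes and 0.36 over all. The count was 1 when only the E12 and WT libraries were fitted and 5 without WT 50 and E12 5, where 23.2% and 48.2% of all genes were called.

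E12 against VF compares the 2 mutations, at different times after tamoxifen. Fcer1a fell, and no other of the 9 genes was called, against 3.21% of all genes called, 2.19% higher and 1.02% lower. Fcer1a was among 5 of the 9 with an unadjusted p under 0.05 and among 2 that DESeq2 called. With DESeq2 12.7% of all genes were called. The share of all genes with an unadjusted p under 0.05 was not computed. Counts at that threshold, here and below, therefore have no background beside them and are not read as results. E12 lay below VF without overlap for 6 of the 9 genes (Fcer1a, Hdc, Cpa3, Mcpt8, Prss34 and Gzmb) and above for 1 (Il1rl1), against 31.3% of all genes below and 28.2% above. The median log2 difference was -1.84 over the 9 and -0.05 over all genes. When only these 2 groups were fitted, 6 of the 9 genes were called, 5 lower and 1 higher, and so were 48% of all genes, 22.6% lower. The number of calls in this comparison therefore depends on whether the WT libraries enter the fit. Leaving them out changes the spread, the genes tested (13356) and the scaling together, and the part of each was not tested. The 3 comparisons share libraries in pairs and are not independent of each other.

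**Figure D2:**
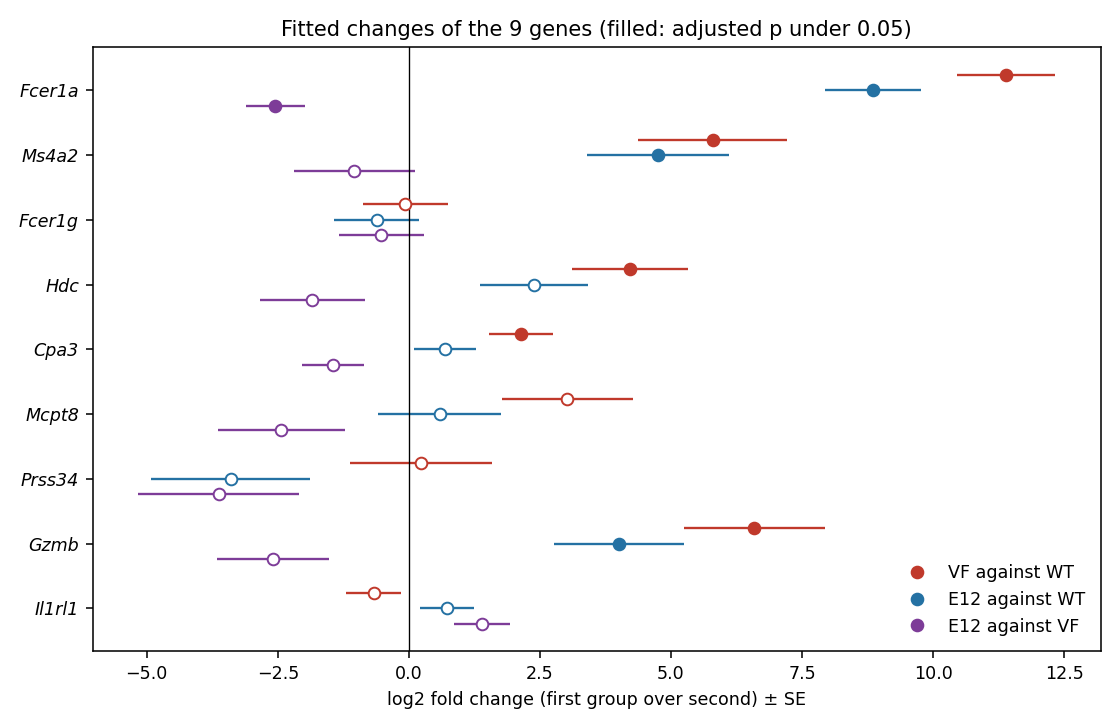
Fitted log2 fold changes with their standard errors (x axis) for the 9 genes (y axis) in the 3 comparisons; filled points have an adjusted p under 0.05. Fcer1a, Ms4a2 and Gzmb are filled in both comparisons with WT, Hdc and Cpa3 only in VF against WT, and Fcer1a alone in E12 against VF; the Fcer1a values against WT rest on 1 WT count.

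The largest group of genes set beside the 9 acts downstream of the IgE receptor. Of its 22 genes 17 rose and 0 fell in VF against WT (median log2 change 1.78, against 0.36 over all genes), 12 rose and 0 fell in E12 against WT (median 1.21, against 0.36), and 0 rose and 3 fell in E12 against VF (median -0.71, against -0.05). The shares of all genes that rose in the 3 comparisons were 27.7%, 23.9% and 2.19%, and 20.9%, 18.1% and 1.02% fell. Lcp2, the adaptor SLP-76, was at a mean of 107 CPM in VF, 35.5 in E12 and 7.28 in WT. Its log2 change was 3.87 ± 0.36 (SE) in VF and 2.28 ± 0.33 in E12 against WT (edgeR adjusted p = 0.00018 and 0.0019). Plcg2, a phospholipase that raises calcium, was at 206, 67.7 and 18.9 CPM in the same order. Lat2, a membrane adaptor, was at 107 CPM in VF and at 36.5 and 32.1 CPM in E12 and WT. Lcp2, Plcg2 and Lat2 were the 3 that fell in E12 against VF (adjusted p = 0.037, 0.044 and 0.029), and none of the 3 passed in any fit without a VF or E12 library. Cbl, a ubiquitin ligase that limits the signal, rose in VF (3.32, adjusted p = 0.0019) and in E12 (3.28, adjusted p = 0.0034) against WT. Most of these genes act downstream of other receptors of blood cells too. With the length offset the counts were 8 for VF and 5 for E12 against WT (4 higher, 1 lower), and with only the E12 and WT libraries 7 for E12. The shares of all genes called in those fits were 46.8%, 32.5% and 23.2%. In E12 against VF 10 fell without WT 50, where 23.5% of all genes were called.

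**Figure D3:**
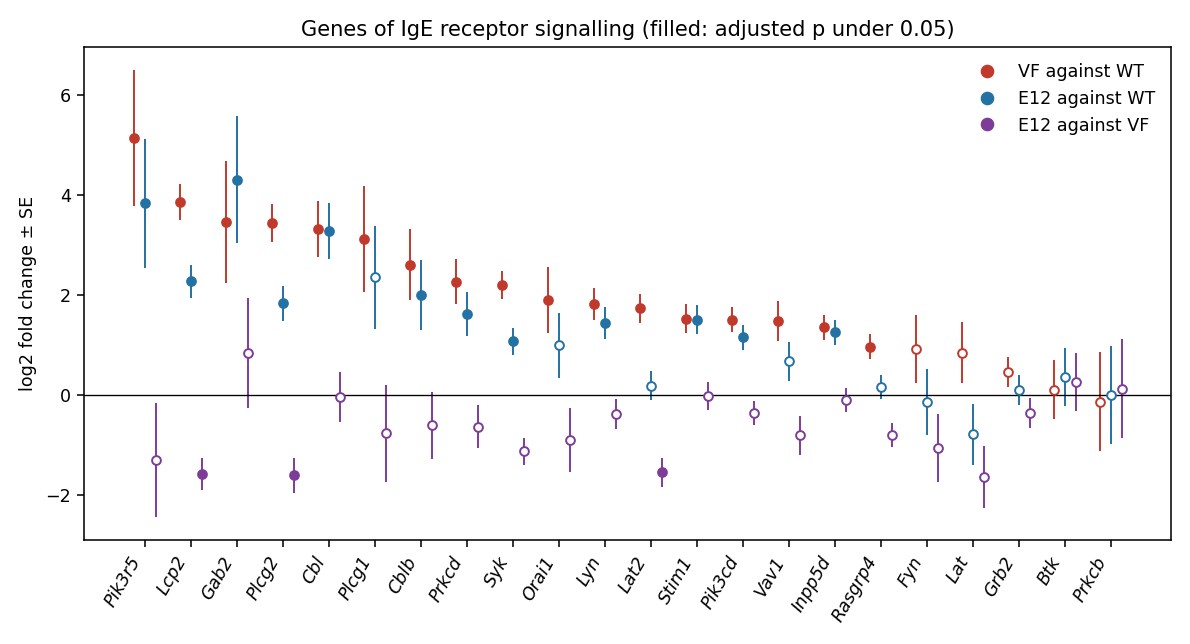
Log2 fold change ± SE (y axis) of the 22 genes of IgE receptor signalling (x axis, in the order of the VF against WT value) in the 3 comparisons; filled points have an adjusted p under 0.05. In VF against WT 17 points are filled, in E12 against WT 12, all above 0, and in E12 against VF 3, all below 0.

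Of 5 receptors that share or counter the gamma chain 4 could be tested, and 2 rose in VF against WT and 1 in E12 against WT, where 27.7% and 23.9% of all genes rose. Fcgr2b, the inhibitory IgG receptor, was at 28.2 to 33.6 CPM in VF, 9.29 to 16.7 in E12 and 2.35 to 9.11 in WT (VF against WT 2.53, edgeR adjusted p = 0.004). Fcgr3, an activating IgG receptor that uses the gamma chain, was at a mean of 48.3 CPM in VF, 6.24 in E12 and 11.5 in WT (VF against WT 2.08, adjusted p = 0.033), and that call was lost with RLE scaling (0.069) and without WT 51 (0.16). Fcgr4 had no WT count, so it passed the filter on low counts only through VF and E12 and had to be lower in WT. It was at least 433-fold higher in E12 than in WT. In E12, 1176 of its 1222 counts were in E12 5.

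Slc18a2, the transporter that loads histamine into granules, had larger fitted changes with smaller standard errors than Hdc, the enzyme that makes it; the difference between these genes was not tested. It was at 215, 226 and 226 CPM in VF, 54.1, 79.8 and 48.5 CPM in E12 and 6.79, 8.6 and 4.22 CPM in WT, so that the 3 groups stood well apart. Slc18a2 rose in VF (5.09 ± 0.36 SE on the log2 scale, edgeR adjusted p = 9.5e-05) and in E12 (3.22 ± 0.33, adjusted p = 0.00062) against WT and was lower in E12 than in VF (-1.87 ± 0.31, adjusted p = 0.018). The last call was lost without any one of VF 1, VF 2, VF 3, E12 1 or E12 5 (adjusted p 0.088 to 0.11). Of the 7 genes of histamine handling 4 could be tested, with 2 higher in VF and 1 in E12 against WT and 1 lower in E12 against VF, against 27.7%, 23.9% and 1.02% of all genes. Hnmt, which inactivates histamine, was at a mean of 16.2 CPM in VF, 4.82 in E12 and 2.51 in WT (VF against WT 2.69, adjusted p = 0.0047). The list's median was 3.89 for VF and 2.08 for E12 against WT, and 2.79 and 1.72 with Hrh1, which had no WT count, set to its lower bound.

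Around the interleukin 33 receptor, 7 of 8 genes were tested. In VF against WT 2 rose (median 1.07), in E12 against WT 1 rose (median 0.03), and in E12 against VF the median was -0.54 with no call. Of all genes 27.7% and 23.9% rose in the comparisons with WT (median 0.36 in each), so these counts are close to or below the background. Traf6, a ubiquitin ligase used by the receptor's adaptor, rose in VF (1.49, edgeR adjusted p = 0.0079) and in E12 (1.69, adjusted p = 0.0067) against WT, and neither call held with the length offset (adjusted p = 0.6 and 0.12). In that fit 0 genes of the list were called in VF and 1, lower, in E12 against WT, and without WT 50 the list had 5 calls in each (4 higher and 1 lower, 3 higher and 2 lower). The share of all genes called was 46.8% and 32.5% with the offset, and 59.9% and 52.5% without WT 50. Il1rap, the second chain of the receptor, was at 22.5 to 26.2 CPM in VF, 19.8 to 24.2 in E12 and 0.331 to 12.9 in WT. The ranges of Il1rap in VF and E12 overlapped, and those of Il1rl1 did not. Il33 was at most 0.347 CPM in any library.

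Of 13 genes of the chymase and granzyme locus 5 are in the table. Cma1, Mcpt1, Mcpt2 and Gzmd reached at most 0.273 CPM in any library, and Ctsg, the fifth, was abundant. Of 6 tryptase genes 2 are in the table, Tpsg1 and Prss28, with at most 0.174 CPM. Ctsg, cathepsin G, the only gene of the locus tested, is a neutrophil and mast cell protease. It was at 858, 617 and 1030 CPM in VF, 172, 240 and 113 CPM in E12 and 202, 40 and 4.59 CPM in WT, and it rose in VF against WT (3.35, edgeR adjusted p = 0.026, lost without VF 1, VF 3 or WT 51). Of 6 genes of granule matrix and protease processing, 3 rose in VF and 2 in E12 against WT, where 27.7% and 23.9% of all genes rose. Serpinb1a, an inhibitor of granule proteases, rose in VF against WT (2.48, adjusted p = 0.0025), and its E12 difference from WT was 0.56 (adjusted p = 0.31). Serpinb9, the inhibitor of granzyme B, rose in VF (1.81, adjusted p = 0.0044) and in E12 (1.1, adjusted p = 0.037), the E12 call being lost in each fit without a VF or E12 library. Ctsc, which activates granule proteases, rose in VF (1.5, adjusted p = 0.012), but with the length offset its change was 0.04, and 0 genes of the list were called in E12 against WT in that fit or without any one VF or E12 library.

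Among factors and growth receptors of the lineage, 12 of 16 genes rose and 1 fell in VF against WT (median 2.65), 8 rose and 0 fell in E12 against WT (median 1.53), and the median in E12 against VF was -1.19 with no call. Of all genes 27.7% rose and 20.9% fell in VF and 23.9% rose and 18.1% fell in E12 against WT, with a median of 0.36 in each and of -0.05 in E12 against VF. Gata2, which promotes mast cell and basophil fate, was at 268, 278 and 291 CPM in VF, 152, 270 and 92.7 CPM in E12 and 34.1, 26.3 and 23.4 CPM in WT. Within E12 it was highest in E12 2 and lowest in E12 5, the order in which 5 of the 9 genes (Fcer1a, Ms4a2, Cpa3, Hdc and Mcpt8) stood in those libraries. Fcer1g and Prss34 stood in the reverse order, and Gzmb and Il1rl1 were lowest in E12 1. Gata2 rose in VF (3.32 ± 0.4 SE, edgeR adjusted p = 0.00049) and in E12 (2.62 ± 0.39, adjusted p = 0.002) against WT. Gata1, which drives red cell formation and is also needed in mast cells, fell in VF against WT (-1.97 ± 0.35, adjusted p = 0.0023), from a mean of 761 CPM in WT to 194 in VF, with 434 in E12. On the deposited levels its difference was -0.74 (adjusted p = 0.22 by limma). Runx1 rose in VF (2.47, adjusted p = 0.00056) and in E12 (1.25, adjusted p = 0.01), and Stat5b, a transcription factor activated by Jak2, rose in both as well (1.51, adjusted p = 0.0021, and 1.36, adjusted p = 0.0051). The Stat5b calls and the E12 call of Runx1 did not hold with the length offset (0.16, 0.15 and 0.06). Kit, the receptor for stem cell factor, was at 503 to 587 CPM in VF, 282 to 358 in E12 and 60.8 to 188 in WT. For E12 against VF edgeR called 0 of 4 genes that share or counter the gamma chain, 0 of 7 around the interleukin 33 receptor, 0 of 6 of the granule matrix and 0 of 16 factors and growth receptors. At an unadjusted p under 0.05 the numbers were 3, 1, 1 and 4, and DESeq2 called 1, 0, 1 and 3. Without WT 50 edgeR called 2, 1, 3 and 7 of them. The share of all genes called was 12.7% with DESeq2 and 23.5% without WT 50. The 8 genes called in E12 against WT were 5 without any one of VF 1, VF 2, VF 3, E12 1 or E12 2. The share of all genes called there went from 42% to between 25.9% and 34.2%.

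Other markers of the same cells, not among the 9, gave a mixed picture. Of 11 tested basophil markers 7 rose in VF (median 1.56) and 6 in E12 (median 1.64) against WT, and 0 fell, where 27.7% and 23.9% of all genes rose with a median of 0.36 in each. Cd200r3, Cd200r4, Il6 and Ccl3, 4 of the 11, had no WT count. They passed the filter on low counts only through VF and E12, so they had to be lower in WT. Cd200r4, a basophil surface receptor, had 591 counts in VF, 108 in E12, of which 94 were in E12 2, and 0 in WT, and so was at least 201-fold and 38.3-fold higher. Ccl3, a chemokine, had no WT count either, and the bounds were 94.8-fold in VF and 75.8-fold in E12. Of 5 tested mast cell markers 3 rose in VF (median 2.52), and in E12 3 rose and 2 fell (median 1.59). Cyp11a1, 1 of these 5, had no WT count and was limited by the filter in the same way. Alox5, the first enzyme of leukotriene synthesis, rose in VF (2.52, edgeR adjusted p = 0.0014) and in E12 (1.59, adjusted p = 0.011), the latter not with the length offset (0.28). Cd63, a protein of granule membranes, was lower in E12 than in WT (-2.37, adjusted p = 0.016), but not with the length offset (0.1). In E12 against VF edgeR called 0 of either list, where 0 basophil and 2 mast cell markers had an unadjusted p under 0.05 and DESeq2 called 0 and 1. The mast cell receptor genes Mrgprb1 and Mrgpra4 reached at most 0.075 CPM in any library.

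Markers of other lineages moved with the groups. The counts of their genes stand against 27.7% of all genes higher and 20.9% lower in VF against WT, 23.9% and 18.1% in E12 against WT, and 2.19% and 1.02% in E12 against VF. Tested genes at 0 in WT, here and in the next paragraph, passed the filter on low counts only through VF and E12. They had to be lower in WT. The summed megakaryocyte markers were at 2650 to 3390 CPM in VF, 576 to 682 in E12 and 72 to 198 in WT, and 12 of 14 rose in VF and 9 in E12 against WT, while 5 fell in E12 against VF; Itgb3 and Ppbp were at 0 in WT. The stem and multipotent progenitor list ran from 2020 to 2030 CPM in VF through 640 to 948 in E12 to 203 to 296 in WT, with 10 of 12 higher and 1 lower in VF and 9 higher in E12 against WT and 1 higher and 6 lower in E12 against VF; Mecom, Procr and Tek were at 0 in WT. Erythroid markers went the opposite way, at 1340 to 1990 CPM in VF, 8960 to 22900 in E12 and 23700 to 40400 in WT. Of the 14 erythroid genes 11 fell in VF against WT, 3 rose and 4 fell in E12 against WT and 11 rose in E12 against VF. The order VF, E12, WT of Fcer1a, Hdc and Gzmb was thus also that of the megakaryocyte and progenitor sums, and the part of this in the 9 genes was not tested.

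Mature myeloid and lymphoid markers did not keep that order in all libraries. Neutrophil markers summed to 7290 to 13400 CPM in VF, 2080 to 2340 in E12 and 521 to 7920 in WT, the WT maximum being WT 50; 7 of 14 rose in VF against WT, 2 rose and 3 fell in E12 against WT, and 2 fell in E12 against VF. Monocyte and dendritic cell markers were at 704 to 1030, 317 to 721 and 90.5 to 940 CPM in VF, E12 and WT, with 6 of 13 higher in VF and 5 in E12 against WT and Siglech at 0 in WT. Eosinophil markers were at 48.7 to 80.5, 12.8 to 23.5 and 7.58 to 111 CPM, with 1 of 8 higher in VF and 1 lower in E12 (Prg2, edgeR adjusted p = 0.048, and 0.27 with the length offset) against WT; Ear10 was at 0 in VF and E12. T and NK cell markers were at 526 to 625, 166 to 251 and 155 to 1190 CPM, with 2 of 12 higher and 1 lower in VF and 2 higher in E12 against WT, and Cd8a, Cd4 and Eomes at 0 in WT. B cell markers were at 128 to 254, 28.3 to 634 and 328 to 3770 CPM, with 2 of 7 lower in VF against WT and 0 called in E12 against WT (4 at an unadjusted p under 0.05, 5 called by DESeq2). For E12 against VF edgeR and DESeq2 called 0 eosinophil, monocyte, T and NK, and B cell markers, with 1, 1, 2 and 0 at an unadjusted p under 0.05. WT 50 led the neutrophil, monocyte, T and NK, and B cell sums of its group and had the highest Mcpt8 of WT. With its TMM factor of 0.456 it also had the highest Fcer1g and Prss34 CPM of all 9 libraries. Without WT 50 and E12 5, 7 of the 9 genes rose in VF against WT, Fcer1g (1.49, adjusted p = 0.0027) and Mcpt8 (4.42, adjusted p = 0.018) being the 2 added, and Fcer1a, Ms4a2, Hdc, Cpa3 and Gzmb kept their calls. In that fit 33% of all genes rose.

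**Figure D4:**
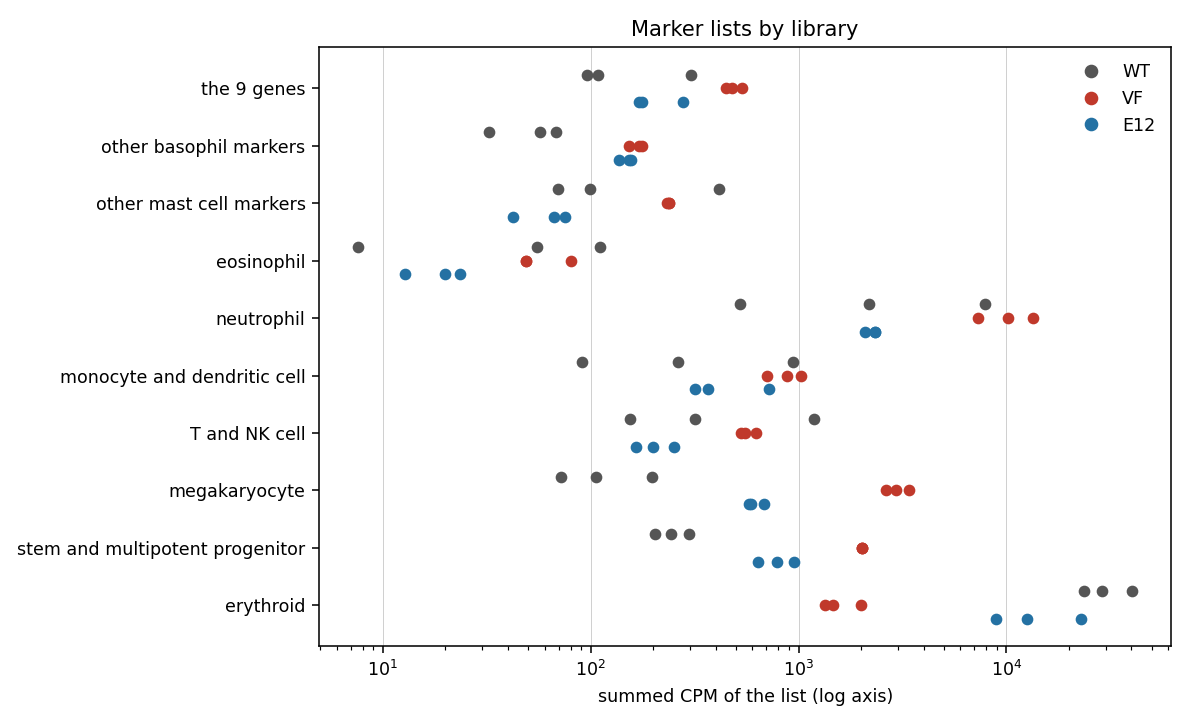
Summed CPM of the 9 genes and of 9 marker lists (y axis) in each library (points, log10 x axis), coloured by group, n = 3. The 9 genes, megakaryocyte and progenitor markers are highest in VF, erythroid markers are lowest there, and the WT libraries spread over more than the VF libraries for neutrophil, monocyte and T and NK cell markers.

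For each gene the tested genes most like it were found by the root mean square (RMS) difference of their log2 CPM, centred on the mean, over the 9 libraries. For Fcer1a these were Lag3 and Vldlr (RMS difference 0.51 for both), with means of 28.2 and 46.7 CPM in VF, 6.46 and 9.56 in E12 and no WT count. For Ms4a2 they were Slco3a1 (0.42) and P2rx1 (0.57), for Hdc Zbtb16 (0.46) and Sestd1 (0.51), and for Cpa3 Timp2 (0.39) and Serpinb1c (0.40). Fcer1g was closest to Bach2 (0.34) and Tyrobp (0.36), the latter encoding another signalling adaptor of the same kind. Mcpt8 was closest to Ffar2 (0.35) and Anxa3 (0.52), Gzmb to Cyp2j6 (0.36) and Gnaz (0.42), and Il1rl1 to Aars (0.27). Prss34 had no close match, the nearest being Hsd11b1 (0.82) and Klre1 (1.29). None of the nearest genes was another of the 9. Among themselves the closest pair was Fcer1g and Cpa3 (1.5), then Fcer1a and Gzmb (1.58) and Ms4a2 and Hdc (1.59).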

How the data were processed

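RNA was measured in 9 libraries from bone marrow cells sorted as MEP, made with SmartSeq 2, which has no molecular identifiers and no strand, from RNA extracted with a PicoPure kit, per the labels. The authors deposited whole-number counts for 17769 genes with a gene length in bases, and expression levels on a log2 scale, which served only as an alternative. STAR, limma and the builds GRCm38 and mm10 are named in the submitters' processing notes without versions or roles, and which tool and annotation counted the reads is not given in the sources used here. Those settings decide how reads of related genes, such as Mcpt8 and Gzmb, were shared. Groups follow the genotype in the labels.

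The counts were tested in R 4.3.3 with edgeR 4.0.16. The function filterByExpr (minimum count 10) kept 13608 genes, TMM factors scaled the libraries, and 1 quasi-likelihood fit (glmQLFit, glmQLFTest) of all 9 libraries had the group as its only term. Two-sided p-values were adjusted with the Benjamini-Hochberg method across the genes tested, and genes under 0.05 are called. The standard error of a log2 change is its size over the root of the test's F. CPM use the TMM factors, and CPM per kb the authors' gene length. Log2 CPM for the likeness of genes used a prior count of 1. Counting intervals are exact binomial intervals at 95% on the summed reads of each group. The test was checked on simulated counts of 13608 genes with 200 changed. At an 8-fold change it found 56% of the changed genes in VF against WT, 60% in E12 against WT and 59% in E12 against VF, and at a 2-fold change 0%, 2% and 1%. Many more genes were called in the data against WT, 48.6% in VF and 42% in E12. The adjusted threshold is less strict there than in the simulation, so these shares do not give the sensitivity of the comparisons with WT. A difference that did not pass is still not shown to be absent.

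The 9 genes and the 18 gene lists set beside them were chosen with earlier results of these data known, so the lists give no independent support. Named genes are the 9, up to 2 genes with the smallest p per comparison from each pathway list, 1 from each marker list, and the 2 genes most like each of the 9. 1 gene that met this rule is not reported here. Genes outside that rule (Kit, Nkg7, Prf1, Gzma, Epx, Prg3, Cd4, Eomes, Cd34, Klf1, Epor, Il33, Cd200r3, Il6, Cyp11a1 and genes near 0) were named after their values were seen.

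Alternatives were RLE and upper-quartile scaling, no filter on low counts, DESeq2 1.42.0, voom and deposited levels with limma 3.58.1, fits of 2 groups, an offset for gene length, WT 50 and E12 5 left out together, each library left out in turn, and a replicate block. VF 1, VF 2, E12 1 and E12 2 alone, and all alternatives for list genes, were chosen after seeing the data. Figures were drawn with matplotlib 3.10.9.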

Additional observations from a re-analysis of the deposited data

Results flagged for a closer look

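The level of Fcer1a stood out because the size of its difference from WT itself differed between the 2 mutant groups. The test of that difference, E12 against VF, gave a log2 value of -2.55 (edgeR adjusted p = 0.046, 3 of 3 E12 libraries below 3 of 3 VF libraries), and it is the same test that drew attention to the gene. The call was lost in 8 of 20 alternatives, among them each fit without a VF or E12 library, where the adjusted p reached 0.21. E12 and VF also differ in the time after tamoxifen, and genotype and time cannot be told apart.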

How the results depend on the processing

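The number of the 9 genes called was 5 in VF against WT, 3 in E12 against WT and 1 in E12 against VF. The share of all genes called was 48.6%, 42% and 3.21%. Fcer1a, Ms4a2, Hdc and Gzmb kept their call in VF against WT in all 18 alternatives, as did Fcer1a in E12 against WT. The count moved to 8 (7 higher, 1 lower) in VF against WT with the gene length offset, where 46.8% of all genes were called. In E12 against WT it moved to 1 with only those groups fitted (23.2% of all genes) and to 5 without WT 50 and E12 5 (48.2%). In E12 against VF it moved to 0 with no filter, 2 with DESeq2 or the length offset (1 higher and 1 lower in the latter), 6 with only those groups and 3 without WT 50 and E12 5. The shares of all genes called in those fits were 1.85%, 12.7%, 10.1%, 48% and 18.4%, in that order. Limma on the deposited levels called 1 gene there, Il1rl1 (higher), in place of Fcer1a, and 12.1% of all genes. Leaving out each library in turn gave 4 to 7, 1 to 5 and 0 to 4 calls in the 3 comparisons. The last was 0 without any one VF or E12 library and 4 without WT 50, with the cause not tested. Over all genes the share called in these fits was 34.2% to 59.9%, 25.9% to 52.5% and 0.137% to 23.5%. Its top value in E12 against VF, 23.5%, was also without WT 50.

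The sign of Fcer1g in VF against WT reversed to 0.71 with voom, 0.68 with the deposited levels, 1.98 with the length offset, 1.49 without WT 50 and E12 5, 0.01 without VF 2 and 1.46 without WT 50, and with 1 library left out it ranged from -0.86 to 1.46. In E12 against WT it reversed to 1.56, 0.17 and 0.93 with the length offset, without WT 50 and E12 5, and without WT 50, and ranged from -1.43 to 0.93 with 1 library left out. Prss34 in VF against WT reversed to -0.08 with RLE scaling and with DESeq2, -0.05 with no filter, -0.74 without VF 3, -0.49 without WT 51 and -0.62 without WT 52, within -0.74 to 2.15 with 1 library left out. Il1rl1 in E12 against WT reversed to -0.38 and Ctsc to -0.03 with the length offset, and Mcpt8 to -0.31 without WT 52 (range -0.31 to 1.93 with 1 library left out). With that offset the median log2 change of all genes went from 0.36 to -0.2 in VF and to -0.12 in E12 against WT, and the share of calls that were higher from 57% to 39.1% and from 56.9% to 41.2%.

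The IgE signalling count in E12 against VF went from 3 to 15 (2 higher, 13 lower) with only those groups fitted and to 10 without WT 50. Over all genes the share called went from 3.21% to 48% and 23.5%. The factors list in E12 against WT went from 8 to 2 with only those groups and to 4 (3 higher, 1 lower) with the length offset. Over all genes the share called went from 42% to 23.2% and 32.5%.

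VF and E12 share only the replicate numbers 1 and 2. With the replicate block on those 4 libraries 8 of the 9 genes were called in E12 against VF (1 higher, 7 lower), and 7 (1 higher, 6 lower) without the block. The share of all genes called was 40.4% with the block and 39.7% without it. Deviations of same-numbered libraries from their group means correlated at 0 and 0.09 over 13608 genes. Libraries with different numbers gave -0.19 to 0.22, so these values cannot show whether same-numbered libraries share more than a number. For the comparisons with WT no paired analysis was possible because WT has other numbers. Depth limits Fcer1a and Gzmb in WT, where 1 and 5 counts in all leave their level there uncertain.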

Other observations

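The receptors for growth factors of basophils were named after their values were seen. Il3ra, the alpha chain of the interleukin 3 receptor, was at 14.7, 11.8 and 15.1 CPM in VF, 5.9, 6.29 and 5.69 in E12 and 0.0552, 2.12 and 2.75 in WT. Csf2rb, the beta chain it shares with other cytokine receptors, was at 68.5, 54.3 and 62.5 CPM in VF, 12.8, 30.7 and 15.6 in E12 and 5.08, 1.81 and 0 in WT. Csf2rb2, a close relative of Csf2rb in the mouse, was at 21.2 to 27.3 CPM in VF, 4.69 to 12.8 in E12 and 0 to 0.841 in WT. For these 3 genes no 2 groups overlapped. Csf2ra, the alpha chain of the GM-CSF receptor, was at 27 to 36.5 CPM in VF, 12.8 to 14.4 in E12 and 7.75 to 18.2 in WT, so that E12 and WT overlapped. Crlf2, a chain of the receptor for thymic stromal lymphopoietin, was at 16.7 to 23.2 CPM in VF, 6.77 to 8.15 in E12 and 0.529 to 4.36 in WT, again with no overlap. Of all genes 39.7% lay higher in VF than in WT without overlap, 33% higher in E12 than in WT and 31.3% lower in E12 than in VF. Csf2rb and Csf2rb2 are near copies, and reads could have been assigned to either.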
